A study of Mus musculus with 2 samples.

Results

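The classical cadherins and the non-clustered protocadherins were described in mouse cerebral cortex. Members were all protein-coding genes whose symbol is Cdh followed by a number, or Pcdh followed by a number with or without a final x. This gave 35 of the 55536 genes in the gene table, which holds 22028 protein-coding genes. By their usual families they are 5 type I classical cadherins, 13 type II classical cadherins, 5 other cadherins, 4 delta-1 protocadherins, 5 delta-2 protocadherins and 3 other protocadherins. The clustered protocadherins, the desmosomal cadherins and the giant Fat, Dachsous and Celsr cadherins fall outside this rule.

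Total RNA depleted of ribosomal RNA was sequenced for 2 males aged 2 months, from cerebral cortex of the left side. Both animals were B6CASTF1/J hybrids, the first generation of a cross between C57BL/6J and CAST/EiJ, with no treatment or engineered allele named in the labels. They form 1 group of 2 biological replicates, so the design holds no contrast between conditions. The labels give the males different numbers but tie both libraries to the same donor record. They are treated here as 2 animals, and every SD with n = 2 rests on that reading. Each library was made from 300 ng of RNA with ERCC synthetic RNAs added. Library totals were 33007629 (replicate 1) and 32142918 (replicate 2) expected counts. The chi-square of the counts over genes was 6.42 times its degrees of freedom, so the libraries differed by more than counting error. This value cannot tell 2 animals from 2 libraries of 1 animal. Markers fixed for excitatory neurons, inhibitory neurons, astrocytes and mature oligodendrocytes were each detected 5 of 5, and 5 of 5 striatal markers and 5 of 5 thalamic markers were also detected.

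Classical cadherins are calcium-dependent adhesion proteins that bind like cadherins on the next cell through their outermost domain. Their cytoplasmic tail holds p120-type catenins near the membrane and beta-catenin near its end, and alpha-catenin joins that complex to actin. In the cortex they take part in neuroepithelial adhesion, axon targeting and synapse adhesion. Delta protocadherins have longer first coding exons and tails without the beta-catenin site. Conserved tail motifs of the delta-1 group include a docking motif for protein phosphatase 1, and several delta-2 tails bind the WAVE complex, which drives branched actin assembly.

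The sequence that separates the classical subfamilies lies just after the site where the propeptide is cut off. Type I cadherins exchange 1 tryptophan side chain with their partner and type II cadherins exchange 2, so the start of the mature chain is shown for 8 classical members. Each line gives 42 coding bases in transcript direction from GENCODE release M21 on build mm10, and capitals mark tryptophan codons.
Cdh1-201: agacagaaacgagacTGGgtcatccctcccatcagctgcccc
Cdh4-201: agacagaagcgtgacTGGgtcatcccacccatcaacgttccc
Cdh5-201: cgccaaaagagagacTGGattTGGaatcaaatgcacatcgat
Cdh8-204: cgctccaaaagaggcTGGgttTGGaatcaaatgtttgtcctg
Cdh10-202: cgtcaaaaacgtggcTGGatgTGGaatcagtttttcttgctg
Cdh11-201: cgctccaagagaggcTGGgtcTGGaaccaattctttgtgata
Cdh12-203: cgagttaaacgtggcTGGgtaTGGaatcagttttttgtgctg
Cdh22-201: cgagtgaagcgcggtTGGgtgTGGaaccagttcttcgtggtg

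The type I lines are from Cdh1 (chr8:106653570-106653611, plus strand) and Cdh4 (chr2:179797548-179797589, plus strand). The type II lines are from Cdh5 (chr8:104113022-104113063, plus), Cdh8 (chr8:99400765-99400806, minus), Cdh10 (chr15:18899739-18899780, plus), Cdh11 (chr8:102679651-102679692, minus), Cdh12 (chr15:21237831-21237872, plus) and Cdh22 (chr2:165180943-165180984, minus). In every line the first 4 codons are the cleavage site, an arginine, any residue, a lysine or arginine and an arginine. Each stretch lies within 1 coding exon.

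Counted from that site, all 5 type I members had a tryptophan codon at position 2 and none at position 4. All 13 type II members had tryptophan codons at positions 2 and 4. Among 21943 protein-coding genes with an annotated coding form, 13 genes (0.0592%) held a cleavage site followed by both codons, and these were the 13 type II members. The pattern with position 2 alone occurred in 65 genes (0.296%), of which 6 were members, namely the 5 type I cadherins and Cdh26. The histidine-alanine-valine codons of the first domain stood at position 79 of the mature chain in 4 of 5 type I members, all but Cdh15, and in no type II member within the stretch searched.

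The phosphatase docking motif of the delta-1 tails is shown next, since its inclusion varied among transcripts. Each line gives 36 coding bases within 1 exon, and capitals mark the 5 codons for arginine, arginine, valine, threonine and phenylalanine.
Pcdh7-203: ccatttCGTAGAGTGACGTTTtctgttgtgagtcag
Pcdh9-204: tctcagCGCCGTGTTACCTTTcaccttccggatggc
Pcdh11x-203: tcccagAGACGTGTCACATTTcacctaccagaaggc

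These lie at chr5:57913156-57913191 (Pcdh7, plus strand), chr14:93326845-93326880 (Pcdh9, minus strand) and chrX:120726501-120726536 (Pcdh11x, plus strand). The same 5 residues are coded by 10 of 21943 protein-coding genes (0.0456%), and 4 of those 10 are Pcdh1, Pcdh7, Pcdh9 and Pcdh11x, the whole delta-1 group. The match is a description of the coding sequence.

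Some members also had transcripts that part within the tail or earlier, and the points of parting carry the results on transcript forms below. Lower case gives codons that the paired forms share and capitals the codons after they part.
Cdh8-203: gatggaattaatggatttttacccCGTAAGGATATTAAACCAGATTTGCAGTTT
Cdh8-204: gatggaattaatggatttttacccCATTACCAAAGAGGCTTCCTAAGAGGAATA
Pcdh10-201: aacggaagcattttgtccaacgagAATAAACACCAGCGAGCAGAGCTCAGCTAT
Pcdh10-204: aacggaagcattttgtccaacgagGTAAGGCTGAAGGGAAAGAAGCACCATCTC
Pcdh7-203: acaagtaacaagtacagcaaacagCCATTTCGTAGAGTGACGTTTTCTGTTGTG
Pcdh7-201: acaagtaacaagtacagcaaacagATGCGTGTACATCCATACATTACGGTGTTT
Cdh7-202: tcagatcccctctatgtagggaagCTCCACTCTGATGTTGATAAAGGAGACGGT
Cdh7-204: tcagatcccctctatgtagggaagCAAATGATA

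Cdh8-203 reads on within its exon (chr8:99030847-99030900, minus strand), whereas Cdh8-204 is spliced from chr8:99030876-99030900 to chr8:99024929-99024957. Pcdh10-204 likewise reads on (chr3:45381860-45381913, plus strand), and Pcdh10-201 is spliced from chr3:45381860-45381883 to chr3:45383531-45383560. Pcdh7-203 and Pcdh7-201 leave the same exon (chr5:57722255-57722278, plus strand) for exons at chr5:57913156-57913185 and chr5:57728114-57728143. Cdh7-202 and Cdh7-204 leave chr1:109994366-109994389 on the plus strand for chr1:110048817-110048846 and chr1:109997696-109997704. Cdh7-204 then ends after 3 more codons.

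Of the 35 members, 27 were detected, meaning at least 1 TPM in both libraries, against 58.7% of all protein-coding genes. TPM is the number of transcripts in every 1000000 after correction for transcript length, so levels of different genes can be compared on it. The summed level was 742.3 TPM in replicate 1 and 748.6 TPM in replicate 2, or 745 ± 4.43 TPM (SD, n = 2). Members took 0.0742% and 0.0749% of all TPM. The 4 highest members were all protocadherins, Pcdh1, Pcdh10, Pcdh9 and Pcdh7, and together they held 49.2% and 50.6% of that sum. In bulk tissue, a lower level cannot be split into fewer cells of a type and less RNA per cell, which cannot be told apart here.

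By subfamily, delta-1 protocadherins summed to 293 ± 6.09 TPM, type II cadherins to 185 ± 1.07, delta-2 protocadherins to 147 ± 3.17 and type I cadherins to 61.3 ± 1.09 TPM (SD, n = 2 each). The other cadherins reached 33.3 ± 2.45 TPM and the other protocadherins 26.4 ± 0.212 TPM. These 6 sums kept the same order in both animals, with no overlap. The type II group was detected 13 of 13, the delta-1 group 4 of 4 and the delta-2 group 5 of 5. Of the type I group 2 of 5 were detected, of the other protocadherins 2 of 3, and of the other cadherins only Cdh13, 1 of 5.

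**Figure D1:**
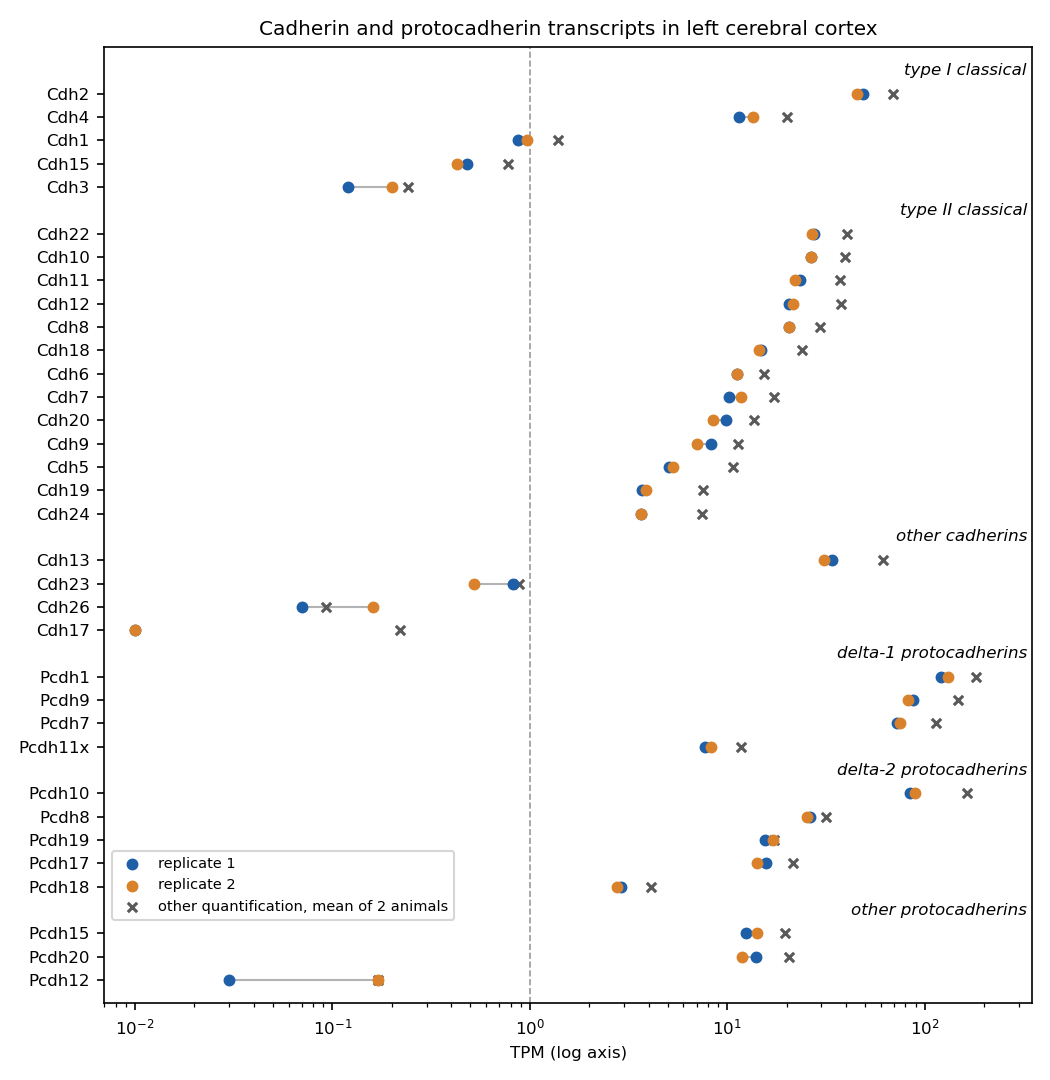
TPM of 34 members on a log axis, grouped by subfamily, with 1 point for each animal and a cross for the mean of the other quantification, the second deposited transcript table; the dashed line marks 1 TPM. Pcdh1 stood highest at 121 and 132 TPM, 7 drawn members lay below the line, and Cdh16, listed at 0 in both animals, is not drawn.

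Among type I cadherins, Cdh2 led. Cdh2, N-cadherin, the main classical cadherin of neural tissue, was at 49.03 and 45.38 TPM (47.2 ± 2.58, SD, n = 2), the fifth level of all members. Cdh4, R-cadherin, stood at 11.52 and 13.50 TPM (12.5 ± 1.40). Cdh2 exceeded Cdh4 by 4.26-fold in replicate 1 and 3.36-fold in replicate 2, so the gap was far wider than the difference between the animals for either gene.

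Cdh1, E-cadherin of epithelia, was just under the threshold at 0.87 and 0.97 TPM, from 80 and 90 counts. Cdh15, M-cadherin of muscle, had 0.48 and 0.43 TPM. Cdh3, P-cadherin, had 0.12 and 0.20 TPM from only 11 and 18 counts. The members just above the threshold were Pcdh18 at 2.91 and 2.77 TPM and Cdh24 at 3.66 and 3.64 TPM, so no member lay between Cdh1 and Pcdh18.

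Type II cadherins were present as a broad set rather than under 1 leader. Cdh22 had 27.49 and 26.77 TPM and Cdh10 had 26.65 and 26.73 TPM. Cdh11, OB-cadherin, followed with 23.31 and 22.05 TPM. Cdh12 had 20.59 and 21.66 TPM and Cdh8, which marks selected cortical and thalamic areas in development, 20.49 and 20.67 TPM. These 5 genes covered a range of 20.49 to 27.49 TPM.

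A middle set followed. Cdh18 was at 14.80 and 14.54 TPM, and Cdh6, K-cadherin, at 11.17 and 11.18 TPM. Cdh7 was at 10.21 and 11.74 TPM, and Cdh20 at 9.84 and 8.50 TPM. Cdh9, which acts at hippocampal mossy fibre synapses, was at 8.30 and 7.06 TPM. The lowest 3 type II members were Cdh5 (5.06 and 5.32 TPM), Cdh19 (3.70 and 3.90 TPM) and Cdh24 (3.66 and 3.64 TPM). Cdh5 is VE-cadherin, the adhesion protein of endothelial junctions, and 5 of 5 endothelial markers were detected in the same libraries. The highest type II member exceeded the lowest, Cdh24, by 7.43 ± 0.111-fold (SD, n = 2).

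Cdh13, T-cadherin, is held in the membrane by a glycolipid anchor and has no cytoplasmic tail. It had 34.15 and 30.89 TPM (32.5 ± 2.31, SD, n = 2), the sixth level of all members. Cdh23, which forms the tip link of hair cells with Pcdh15, was at 0.82 and 0.52 TPM. Cdh26 had 0.07 and 0.16 TPM from 4 and 3 counts, and Cdh17, liver-intestine cadherin, had 1 count in each animal. Cdh16, kidney cadherin, was not counted in either animal, and its 0 counts allow at most 0.0913 and 0.0937 CPM (counts in every 1000000 of the library), the value of 3 counts. Such limits and all intervals below cover counting error only.

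Delta-1 protocadherins included 3 of the 4 highest members. Pcdh1 (ENSMUSG00000051375.15) had 121.26 and 131.77 TPM (127 ± 7.43, SD, n = 2), above 96.9% of protein-coding genes. Pcdh9 (ENSMUSG00000055421.8, chromosome 14, 93013410 to 93890679) had 87.36 and 82.65 TPM (85.0 ± 3.33). Pcdh7 (ENSMUSG00000029108.14, chromosome 5, 57717967 to 58133230) had 72.66 and 74.95 TPM (73.8 ± 1.62). The fourth, the X-linked Pcdh11x, was far lower at 7.72 and 8.24 TPM, and Pcdh1 exceeded it by 15.8 ± 0.201-fold.

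Delta-2 protocadherins were led by Pcdh10 (ENSMUSG00000049100.15, chromosome 3, 45378398 to 45435623), whose tail recruits the WAVE complex. It had 83.98 and 89.53 TPM (86.8 ± 3.92, SD, n = 2), which overlapped Pcdh9. Pcdh8, an activity-regulated synaptic protocadherin, had 26.16 and 25.39 TPM. The X-linked Pcdh19, mutated in an epilepsy that affects mainly females, had 15.62 and 17.12 TPM. Pcdh17 had 15.77 and 14.11 TPM, and Pcdh18 had 2.91 and 2.77 TPM. Pcdh10 exceeded Pcdh18 by 30.6 ± 2.45-fold, the wider range of the delta groups.

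Of the remaining protocadherins, Pcdh15, the hair cell partner of Cdh23, had 12.48 and 14.20 TPM, and Pcdh20 had 14.02 and 11.86 TPM. Pcdh12, an endothelial protocadherin, had 0.03 and 0.17 TPM from 2 and 13 counts. In the order of all 35 levels, 24 of 34 neighbouring pairs did not overlap between genes. Those that did overlap included Pcdh10 with Pcdh9, Cdh12 with Cdh8, and the run from Pcdh19 over Pcdh17 to Cdh18. Where a pair overlapped, its order is not resolved by these 2 animals. Absence of overlap does not by itself resolve an order either. Cdh22 and Cdh10 were apart only by 26.77 against 26.73 TPM, and they overlapped in the other quantification.

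The animals were then compared with each other, as 1 animal against 1 animal with no replicate check and no p-value. The measure was the log2 ratio of normalised counts, replicate 2 over replicate 1, for the 31 members whose mean count reached 10. Of these 31, 0 differed by 2-fold or more, where 1.80% of the 18490 genes compared did. The count was also 0 with DESeq2 size factors and with spike-in scaling, and it was 1, Pcdh12, in the other quantification or with no count minimum. Pcdh12 had 2 and 13 counts in the gene table, under the minimum, and passed that minimum in the other quantification by its own estimated counts. The median ratio was -0.07 for the members and 0.00 for all genes compared. This shift was seen in counts and not in TPM. As log2(TPM + 1) the medians were 0.0012 for the members and 0.0011 for all genes.

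A finer rule asked whether the 95% interval of the ratio left out 0. By it 3 members were higher in replicate 2 (11.0% of all genes compared were), 12 were lower (11.6% of all genes) and 16 held 0. The rule calls genes more readily when they have more reads. A mean of 100 counts was reached by 28 of the 31 members, but by only 12817 of the 18490 genes. The shares of members and of all genes are therefore not like for like. At that minimum 3 members were higher and 10 lower, and the share of all genes was not computed. The proportions called also depend on the scaling. With scaling to the spike-ins, 23 members were higher and 0 lower, beside 65.8% of all genes higher and 0.811% lower, and the median of all genes moved to 0.32 and that of the members to 0.25. Directions below are therefore relative to the typical gene of the library.

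The 3 higher members were Pcdh1 (11286 and 11985 counts, ratio 0.12, interval 0.08 to 0.15), Pcdh15 (0.15, interval 0.02 to 0.27) and Cdh12 (0.10, interval 0.01 to 0.19). Among the lower members, Cdh2 had 4463 and 4056 counts and a ratio of -0.11 (interval -0.17 to -0.05). Cdh13 had a ratio of -0.17 (interval -0.26 to -0.09) and Pcdh17 of -0.16 (interval -0.23 to -0.09). The X-linked Pcdh19 also had -0.17 (interval -0.25 to -0.09). All of these lay inside the central 95% of well-counted protein-coding genes, which ran from -0.30 to 0.28.

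Pcdh20 had a ratio of -0.21 (interval -0.33 to -0.10), as did Cdh20 (interval -0.35 to -0.06). Cdh9 had -0.25 (interval -0.42 to -0.07) and Pcdh18 -0.26 (interval -0.51 to -0.02). Smaller shifts were those of Pcdh9 (-0.08), Pcdh8 (-0.10) and Cdh11 (-0.09). Cdh23, below 1 TPM, had 127 and 82 counts and the lowest ratio, -0.59 (interval -1.02 to -0.19). By subfamily, 4 of 5 delta-2 protocadherins were lower, 3 of 13 type II cadherins, 1 of 5 type I cadherins and 1 of 4 delta-1 protocadherins, and whether these shares differ was not tested. No subfamily of more than 2 compared members was lower throughout.

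**Figure D2:**
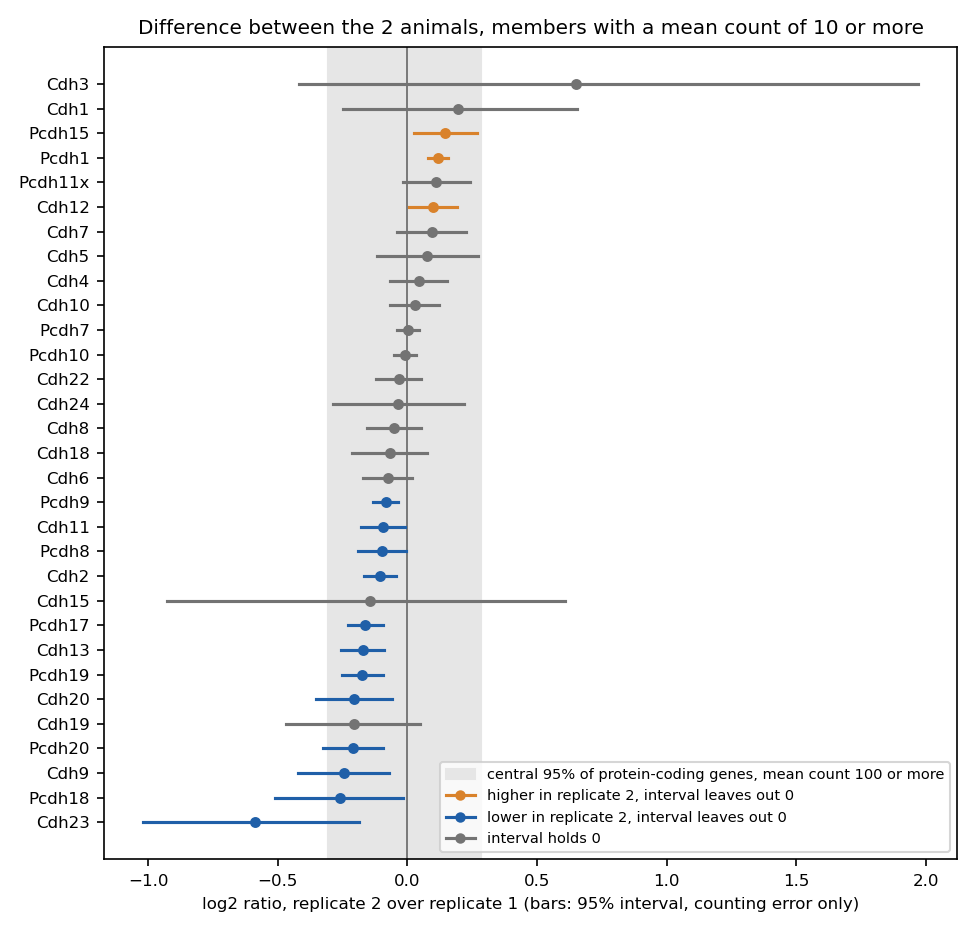
Log2 ratio of replicate 2 over replicate 1 for 31 members, with the 95% interval for counting error as a bar and the central 95% of protein-coding genes averaging 100 or more counts as a grey band from -0.30 to 0.28. Orange marks the 3 members higher in replicate 2, blue the 12 lower, relative to the typical gene (23 higher and 0 lower with spike-in scaling), and the lowest point is Cdh23 at -0.59.

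The ratios of Pcdh7 (0.00, interval -0.04 to 0.04) and Pcdh10 (-0.01, interval -0.05 to 0.03) were the most closely bounded around 0. Ratios with intervals that held 0 were also those of Cdh10 (0.03), Cdh22 (-0.03), Cdh24 (-0.03), Cdh4 (0.04), Cdh8 (-0.05), Cdh18 (-0.07), Cdh5 (0.08), Cdh6 (-0.08), Cdh7 (0.09) and Pcdh11x (0.11). Cdh19 had -0.21 with a wider interval, -0.47 to 0.05, from 275 and 233 counts. Cdh1, Cdh3 and Cdh15 were counted too thinly to bound their ratio closely.

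Markers of several cell types moved between the same animals. The sum of 5 mature oligodendrocyte markers was 723 and 586 TPM, that of 5 inhibitory neuron markers 490 and 446 TPM, and 5 of 5 genes in each list were lower in replicate 2 by the interval rule. The 5 striatal markers summed to 160 and 91.3 TPM, again with 5 of 5 lower. Choroid plexus markers went the other way, at 11.0 and 93.3 TPM, almost all of it Ttr, with Folr1 listed at 0 in replicate 1. Excitatory neuron markers were at 2599 and 2686 TPM. Of 5 astrocyte markers 4 were lower and 1 higher, and of 5 thalamic markers 2 were lower and 1 higher. In no other marker list were more than 2 genes called. Over all genes compared, 11.6% were lower and 11.0% higher. The part of these markers in the members' ratios was not tested.

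Pcdh19 showed how the measure matters. Its counts gave a lower value in replicate 2 (2764 and 2399 counts), whereas its TPM gave a higher one (15.62 and 17.12 TPM). Its transcript Pcdh19-204, a 335-base form annotated for nonsense-mediated decay, was at 2.37 and 5.12 TPM and held 0.76% of the gene's counts. The protein-coding forms of Pcdh19 summed to 13.1 and 11.4 TPM, lower in replicate 2 like the counts. The other quantification listed Pcdh19-204 at a share of 0.

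Transcript forms were compared in the 26 members with at least 2 annotated transcripts and a mean of at least 1 TPM. The leading form was annotated protein coding in 24 of 26, and it held at least 50% of the gene's TPM in 18. The exceptions were Cdh7, led by the decay form Cdh7-204 at 38.3 ± 1.20% (SD, n = 2), and Pcdh15, led by the retained-intron form Pcdh15-206 at 23.1 ± 1.86%. Over all members, protein-coding forms took 87.7 ± 1.48% of TPM, beside 84.7 ± 0.903% over all protein-coding genes. The other quantification gave 80.3 ± 0.721% and 81.6 ± 1.05%, so the order of members and background was not the same in both.

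The other quantification named the same leading form in 22 of 26 members. For Cdh10 and Pcdh20 it chose the other of a pair of forms with equally long coding regions, 788 codons for Cdh10 and 952 for Pcdh20. The Cdh10 forms differed in another way too. The decay form Cdh10-203 held 21.7% and 29.3% of Cdh10 in the other quantification and 0% in both animals in the main one. For Pcdh10 and Pcdh9 it put a short noncoding form first. These are Pcdh10-205, 634 bases, and Pcdh9-203, 656 bases.

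Short forms weigh little in counts and much in TPM. Pcdh10-205 held 2.45% of the gene's counts, but 23.6 ± 3.70% of its TPM (SD, n = 2) and 45.5 ± 0.847% in the other quantification. Pcdh9-203 held 3.54% of counts and 24.2 ± 0.564% of TPM. Cdh12-202, of 404 bases, held 2.30% of counts and 31.3 ± 0.852% of TPM, and it shares 198 exon bases on the same strand with Gm49685. Cdh11-203, a retained-intron form of 599 bases, held 1.80% of counts and 16.8 ± 0.696% of TPM.

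Counting protein-coding forms alone changed the order among the highest members. Pcdh1 stayed first at 127 ± 7.43 TPM. Pcdh7 moved from the fourth to the second place at 73.8 ± 1.62 TPM, above Pcdh10 at 66.2 ± 0.219 and Pcdh9 at 64.4 ± 2.04 TPM. That level of Pcdh7 includes short coding forms, Pcdh7-207 of 171 codons (11.9% and 12.4% of it) and Pcdh7-204 of 124 codons (9.55% and 12.1%). The place of Pcdh7 without these short forms was not computed. The other quantification gave Pcdh7 110, Pcdh9 99.4 and Pcdh10 89.7 TPM, so Pcdh9 and Pcdh10 changed places. Cdh2 remained the fifth at 44.6 ± 3.01 TPM. Pcdh15 fell from place 16 to place 24, at 5.03 ± 0.283 TPM, and its noncoding forms held 58.2% and 66.0% of its TPM.

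**Figure D3:**
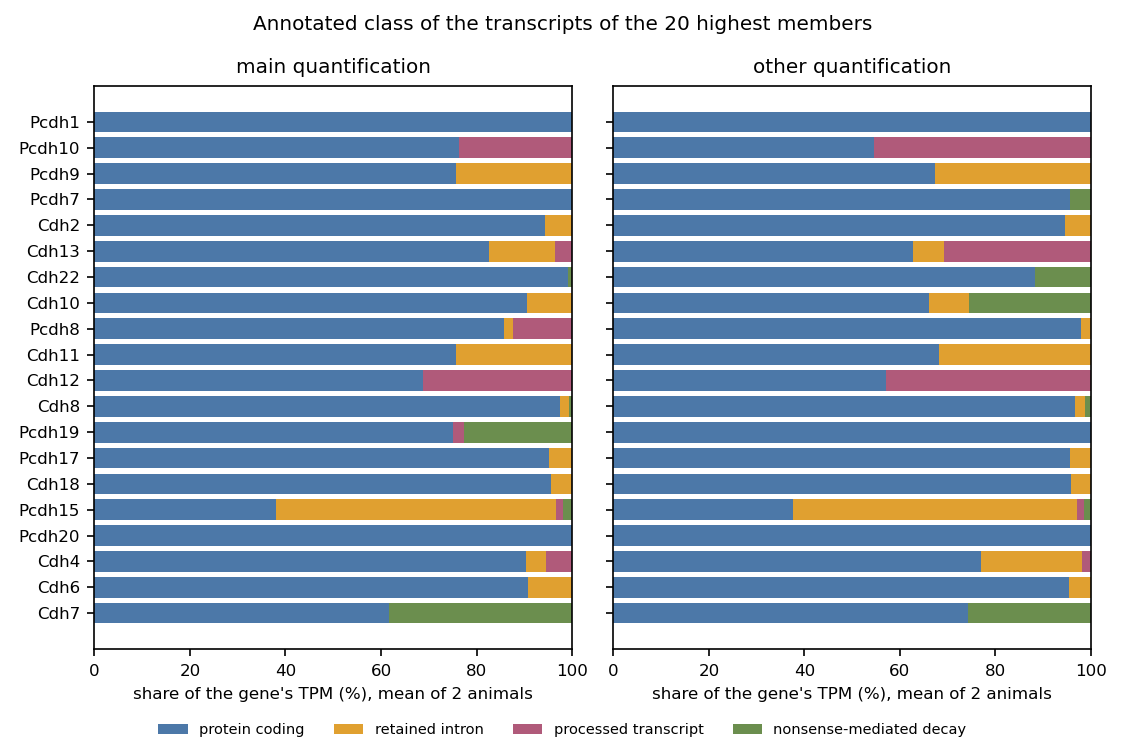
Share of each gene's TPM by the annotated class of its transcripts, as the mean of 2 animals, for the 20 highest members in the main (left) and the other (right) quantification. Pcdh1 and Pcdh20 were protein coding throughout in both panels. The noncoding part was wider on the right for Pcdh10, Pcdh9, Cdh10, Cdh12, Cdh13 and others, and narrower for members such as Pcdh19, Pcdh8 and Cdh7.

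The coding forms were next grouped by their last 10 codons, which show which tail a transcript carries. Of 15 detected classical cadherins, 11 had at least 90% of protein-coding TPM on the end of their longest form in both animals. Each of these 11 has only 1 annotated end, so the annotation largely fixed that share. Only forms annotated without their end could lower it, and the other quantification gave 72.85% for Cdh5 and 72.99% for Cdh24. For Cdh2, Cdh10, Cdh11 and Cdh22 100% was the only possible value. Use of different ends could be compared only in Cdh4, Cdh7, Cdh8 and Cdh18. Cdh8, with 5 annotated ends, was the only one below 50% in both animals.

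For Cdh8 (ENSMUSG00000036510.17, chromosome 8, 99024471 to 99416471) the full tail of Cdh8-203, with 799 codons in all, took 32.2% and 28.9% of protein-coding TPM (30.6 ± 2.31%, SD, n = 2). Cdh8-204, with 711 codons, took 33.6% and 45.3%. Cdh8-201, with 716 codons, took 23.1% and 12.7%, and Cdh8-207, with 754 codons, 9.45% and 11.6%. The full tail was thus in the minority in both animals, and the other quantification gave it 31.5 ± 3.27%. Cdh8-203 and Cdh8-204 share their first 696 codons, after which the former has 103 codons and the latter 15. In classical cadherins, the stretch that binds beta-catenin lies near the end of the tail.

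Cdh7 also had forms without the full product. Its complete end, in forms of up to 785 codons, took 51.6% and 46.8% of protein-coding TPM. Short coding forms that share the end of Cdh7-203, of up to 76 codons, took 40.3% and 32.4%. Cdh7-207, a coding form of 67 codons annotated without its end, took 0% and 20.8%, and 4.22% and 18.8% in the other quantification. Beside them stood the decay form Cdh7-204, which shares 70 codons with Cdh7-202 and adds 3. In Cdh4 the form Cdh4-203, with 334 codons against 913, took 12.2% and 20.8% of protein-coding TPM.

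Cdh2 was divided between Cdh2-201, with 906 codons, at 48.8% and 49.6% of the gene's TPM, and Cdh2-202, with 849 codons, at 46.5% and 43.9%. Both have the same last codons. Cdh13 was carried by Cdh13-201, of 714 codons, at 82.7 ± 2.44% of the gene's TPM (SD, n = 2), and 62.7 ± 6.18% in the other quantification. Cdh22-201 held 99.2 ± 0.115% of Cdh22.

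Among delta-1 protocadherins, the share of protein-coding TPM that carried the phosphatase motif differed between genes. It was 96.1% and 96.0% for Pcdh7 and 96.1% and 96.5% for Pcdh11x. It was 76.9% and 76.8% for Pcdh1 and 53.1% and 49.2% for Pcdh9. The values of Pcdh1 and Pcdh9 did not overlap with each other or with those of the other members. For Pcdh9 the value rests partly on Pcdh9-205, annotated without its end. Over forms with both ends annotated it was 75.9% and 74.3%, and the same restriction gave 62.6% and 63.8% for Pcdh1. The order of Pcdh1 and Pcdh9 therefore turned with the forms counted, while Pcdh7 and Pcdh11x stayed above both. These shares include short and incomplete forms, so they are not shares of full-length products. In Pcdh7 5 of 6 coding forms carry the motif, among them Pcdh7-207 of 171 codons and Pcdh7-204 of 124 codons. In Pcdh1 only Pcdh1-204, annotated without its start, and Pcdh1-203, of 360 codons, carry it. The restricted value of Pcdh1 rests on Pcdh1-203 alone.

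Pcdh1 had 3 ends in play. Pcdh1-204, of 1077 codons with its annotated start missing, held 41.1% and 40.5% of protein-coding TPM. Pcdh1-203, of 360 codons, held 35.8% and 36.3%. The shorter end shared by Pcdh1-201 and Pcdh1-202, of up to 1038 codons, held 21.4% and 20.6%. Every one of these shares differed by less than 1 percentage point between the animals.

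In Pcdh7 the end of Pcdh7-203, in forms of up to 1255 codons, held 72.5% and 68.6% of protein-coding TPM, and the alternative tail of Pcdh7-201, which lacks the motif, held 3.87% and 4.00%. Pcdh7-203 and Pcdh7-201 share 1058 codons before they part. The form Pcdh7-207, of 171 codons, held 11.9% and 12.4%, and Pcdh7-204, of 124 codons, 9.55% and 12.1%.

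Pcdh10, of the delta-2 group, used 4 ends. Pcdh10-202, with 1040 codons, held 42.9% and 40.8% of protein-coding TPM. Pcdh10-204, which reads past the splice site and stops at 896 codons, held 34.8% and 36.9%. The longest form, Pcdh10-201 with 1057 codons, held 15.9% and 16.1%, and Pcdh10-203 held 6.42% and 6.19%. Pcdh10-201 and Pcdh10-204 share 877 codons, after which the former has 180 more and the latter 19. Pcdh17 has only 1 annotated end, so its use of ends could not be compared. Pcdh17-201 with 1157 codons held 95.3 ± 0.324% of its TPM (SD, n = 2).

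**Figure D4:**
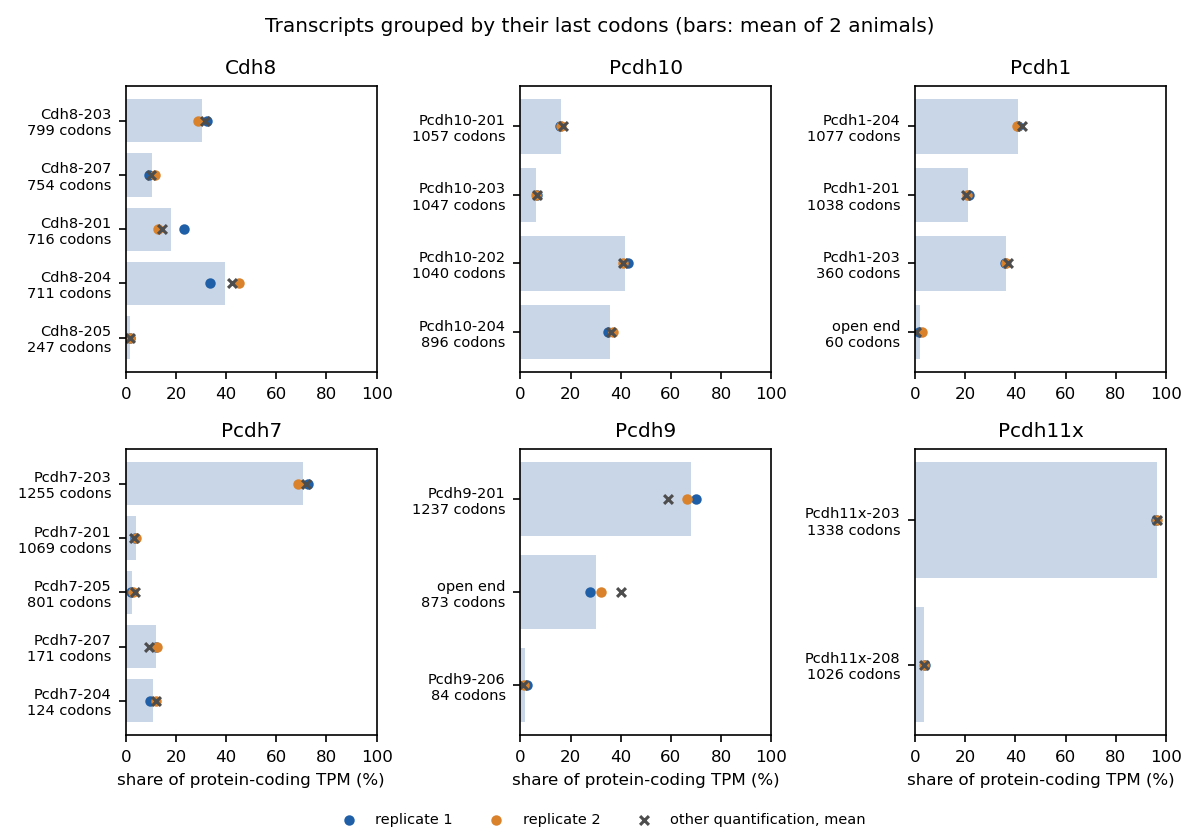
Share of protein-coding TPM on each annotated end in 6 members, with the mean of 2 animals as bars, the animals as points and the other quantification as crosses; each row is named by its longest form. The full tail of Cdh8 sat at 32.2% and 28.9%, and the main end of Pcdh11x at 96.1% and 96.5%.

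Pcdh8 had Pcdh8-201, with 1070 codons, at 69.8% and 57.2% of the gene's TPM, and Pcdh8-204, with 97 fewer codons, at 17.0% and 27.3%. Pcdh19 had Pcdh19-202, with 1145 codons, at 60.6% and 50.5%, and Pcdh19-203, with 48 fewer codons, at 23.1% and 16.1%. Pcdh15 spread over 41 annotated transcripts. Of its protein-coding TPM, the end of Pcdh15-241 held 59.9% and 57.8% and that of Pcdh15-237, the longest with 1943 codons, 32.5% and 29.0%.

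The members shared features of gene structure that the naming rule did not use. Type II members had 11 or 12 coding exons in the form examined and 711 to 813 codons, and type I members 14 to 16 exons and 784 to 913 codons. The 12 exons and 711 codons are those of Cdh8-204, whereas Cdh8-203, with the full tail, has 11 coding exons and 799 codons. Delta-1 and delta-2 members had 2 to 7 coding exons, and their longest coding exon ran from 2147 bases in Pcdh19 to 3174 bases in Pcdh7. The longest in any classical cadherin was 533 bases, in Cdh22. The median span of detected members was 154 kb, beside 25.9 kb for 12934 detected protein-coding genes. Pcdh15 covered 1550 kb and Cdh12 1140 kb, whereas Pcdh8 covered 4.54 kb.

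Type II genes often stood next to each other on the chromosome. On chromosome 15, Cdh6, Cdh9, Cdh10, Cdh12 and Cdh18 followed one another with 0 protein-coding genes between neighbours. Their levels ran from 7.68 TPM for Cdh9 to 26.7 TPM for Cdh10, which are themselves neighbours. Cdh8, Cdh11 and Cdh5 on chromosome 8 also had 0 genes between them, at 20.6, 22.7 and 5.19 TPM. Cdh7 and Cdh19 on chromosome 1 were likewise adjacent, at 11.0 and 3.80 TPM. Pcdh20 and Pcdh9 on chromosome 14 had 0 genes between them and levels of 12.9 and 85.0 TPM. Some adjacent pairs thus differed widely in level, and others, such as Cdh8 and Cdh11, were close.

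Reads were assigned to members with little ambiguity between genes. The deposited posterior SD of the count reached at most 0.0506% of the count in any member. Exons of 7 members overlap another gene. The largest overlap is that of Pcdh7 with 4932441J04Rik on the opposite strand, 2235 bases or 21.1% of its exon bases, and 4932441J04Rik was at 3.20 and 3.43 TPM. The labels name a spike-in profile for stranded libraries, but the strand setting of the counting is not given, so reads from opposite strands may not have been told apart.

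The partners of the classical tail were abundant. Of 11 catenins and armadillo partners 10 were detected, with a sum of 608 ± 9.05 TPM (SD, n = 2). Ctnnb1, beta-catenin, was at 226 and 223 TPM, Ctnnd2, the neuronal delta-catenin, at 117 and 122, and Pkp4 at 103 and 88.5 TPM. By the interval rule, again relative to the typical gene, 3 of the 11 were lower in replicate 2 and 0 higher. Over all genes compared, many of them with fewer reads, 11.6% were lower and 11.0% higher. Whether this or any list below differs from those shares was not tested. Jup, plakoglobin, had the largest ratio of the list, -0.18 (interval -0.29 to -0.07).

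Of 8 nectins and junction linkers all 8 were detected, at 217 ± 7.41 TPM in sum. In this list 4 were higher in replicate 2 (11.0% of all genes compared) and 0 lower (11.6%). Tjp1 was at 65.5 and 65.4 TPM, Afdn, afadin, at 54.2 and 59.2, and Nectin1 at 46.7 and 49.3 TPM. Vcl, vinculin, had a ratio of 0.20 (interval 0.07 to 0.33). All 7 genes of cadherin cleavage were detected, at 128 ± 3.59 TPM in sum. Adam10, the protease that sheds the extracellular part of N-cadherin, was at 32.2 and 31.0 TPM, and Ncstn, nicastrin, at 26.4 and 28.9 TPM. Pcsk7, a proprotein convertase, had a ratio of 0.30 (interval 0.14 to 0.46) and was the 1 gene of this list called higher.

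Partners of protocadherin tails were the WAVE complex and protein phosphatase 1. The 9 genes of the WAVE complex were all detected, at 988 ± 15.7 TPM in sum, with Cyfip2 at 263 and 271 TPM, Nckap1 at 186 and 184, and Abi2 at 179 and 165 TPM. In this list 1 gene was higher in replicate 2 (11.0% of all genes compared) and 2 lower (11.6%). Abi1 had the largest ratio, -0.18 (interval -0.25 to -0.10). The 3 catalytic subunits of protein phosphatase 1 summed to 409 ± 6.75 TPM. Ppp1cb was at 182 and 183 TPM, Ppp1ca at 135 and 135, and Ppp1cc at 96.4 and 86.2 TPM with a ratio of -0.14 (interval -0.21 to -0.07), and 2 of the 3 were lower and 0 higher.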

How the data were processed

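Each of the 2 libraries came with 3 tables. The gene table and the first transcript table hold expected counts, and TPM that the authors scaled to 1000000 over all rows, spike-ins included, made from a transcriptome alignment on build mm10 with annotation M21, per the text record deposited beside the files. The second transcript table holds estimated counts and TPM that the authors derived from 1 sequence file. The gene table also holds the posterior SD of each count, used as deposited. Which aligner and which quantifiers were run is not given in the sources used here. CAST/EiJ reads were compared with a C57BL/6J reference, and the effect of this on the counts was not measured.

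Levels are deposited TPM. For ratios, expected counts were rounded, 96 spike-in rows and 26249 rows with no gene name (1.78e-05% and 2.48e-05% of counts) were left out, and genes whose mean count reached 10 were kept. CPM were scaled by TMM with a prior count of 2 (edgeR 4.0.16, R 4.3.3). Intervals are exact conditional 95% intervals (Clopper-Pearson, scipy 1.17.1), and treat reads as independent molecules, which PCR copies are not. The script was tested on simulated data. The labels number the males differently but give both libraries the same donor record, and they were treated as 2 animals. The alternatives took scaling from DESeq2 1.42.0 or from the spike-ins, changed the prior count, pseudocount, threshold or TPM denominator, left out 1 animal, or used the second transcript table. No paired comparison exists within 1 group.

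The members, the 7 partner lists and the 12 marker lists were chosen with earlier results of these data known. All members are named. Other genes are named if they are the 3 highest of their list or its most different gene averaging 100 or more counts, and forms if they lead a member or hold at least 10% of it. Genes named beyond that were chosen after their values were seen. Coding sequences are GENCODE M21 transcripts, and codons were translated by script. Sequences on chromosome 18, and values of 1 gene of the partner lists, which is no member, are not reported here.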

Additional observations from a re-analysis of the deposited data

How the results depend on the processing

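The number of detected members was 27 to 29 over the other quantification, either animal alone, a protein-coding denominator and a threshold of 0.5 TPM, and 24 at 5 TPM. The summed TPM was 742.3 to 748.6 without 1 animal, but 1183 in the other quantification and 1530 with TPM rescaled to protein-coding genes. The count of protein-coding leading forms was 24 without either animal. Members at least 2-fold apart numbered 1 in the other quantification and 1 with no count minimum, Pcdh12 in both, which has 2 and 13 counts in the gene table. With spike-in scaling 23 members lay beyond counting error, 23 higher and 0 lower. Of the 12 members called lower, that scaling reversed 11 log2 ratios: Cdh2 0.21, Cdh9 0.07, Cdh11 0.22, Cdh13 0.15, Pcdh17 0.16, Pcdh8 0.22, Pcdh18 0.06, Pcdh20 0.11, Cdh20 0.11, Pcdh19 0.15 and Pcdh9 0.23. The other, Cdh23, stayed negative at -0.28. Negative ratios whose interval held 0 also changed sign, among them Cdh8 (-0.05 to 0.27) and Cdh19 (-0.21 to 0.11). Pcdh19 was also reversed as log2(TPM + 1), 0.12, and log2(TPM + 0.1), 0.13, where its decay form weighs more than in counts. Ratios that moved from counts to log2(TPM + 1) were those of Cdh4 (0.04 to 0.21), Pcdh10 (-0.01 to 0.09) and Cdh19 (-0.21 to 0.06). No ratio between animals exists without 1 of them. No paired analysis was possible because there is only 1 group. Cdh3, Cdh15, Cdh26, Pcdh12, Cdh17 and Cdh16, with at most 33 counts in an animal, are limited by depth. The quantifications differ from each other by more than the animals do for most levels, and the cause was not tested.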

Other observations

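Cadherin relatives outside the naming rule were uneven in level. The 17 large and atypical members of the superfamily summed to 997 ± 8.51 TPM (SD, n = 2), above the 745 ± 4.43 TPM of the 35 members, and 13 of the 17 were detected. Clstn1, a calsyntenin that links membrane cargo to kinesin, was alone at 617 and 621 TPM. Clstn3 was at 171 and 174 TPM and Celsr2, a planar polarity cadherin, at 70.2 and 72.2 TPM. By the interval rule 4 of the 16 compared were higher in replicate 2 (11.0% of all genes compared) and 5 lower (11.6%). Cdhr1, a photoreceptor cadherin, had the largest log2 ratio among those averaging 100 or more counts, -0.24 (interval -0.43 to -0.06).

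Of the desmosomal cadherins, which anchor intermediate filaments, 0 of 9 were detected, and they summed to 2.23 and 1.04 TPM. Dsc3 was at 1.28 and 0.31 TPM, Dsg2 at 0.55 and 0.50 and Dsc2 at 0.17 and 0.15 TPM. The log2 ratio of Dsc3 was -1.40 (interval -2.06 to -0.88), more than 2-fold lower in replicate 2.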
